A study of Mus musculus with 12 samples.

Results

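The cardiac myosin genes were read in 12 mouse hearts. The set holds 8 genes: the heavy chains Myh6, Myh7 and Myh7b, the regulatory light chains Myl2 and Myl7, the essential light chains Myl3 and Myl4, and Mybpc3, the cardiac myosin binding protein. Members were all probe sets that the array's annotation assigns to a single gene of the set, which gave 12 probe sets of 45037, and all 12 passed the filter on low signals that 22519 probe sets passed. The hearts came from C57BL/6 mice aged 8 to 9 weeks, 3 from ILKR211A Tg mice, 3 from ILKS343D Tg mice and 6 from WT littermates. Both transgenes are mutated forms of the human gene for integrin-linked kinase (ILK) over-expressed in the heart muscle, and the sources used here do not give the promoter that drives them. The labels name no surgery, and nothing says whether a line was kept from more than 1 founder.

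The WT hearts carry 2 runs of replicate titles, called the first and the second set below, each with 3 hearts. Both lines are compared with the same 6 WT hearts. No source used here ties a set to a transgenic line. The heart numbers in the labels place S343D Tg and the first set in 1 to 6 and R211A Tg and the second set in 7 to 12, so that number and line cannot be told apart among the transgenic hearts. All hearts are labelled female except replicate 1 of the first set, and the description of that same sample is the 1 that names the left ventricle. The transgene was seen in each labelled group: Ilk signal was 8223, 9553 and 8622 in R211A Tg hearts, 3258, 3272 and 4016 in S343D Tg hearts, and 551 to 657 in the WT hearts. The median signal of an array was between 41.5 and 49.1.

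Myosin is the motor of the thick filament. Each motor is a pair of heavy chains, which split ATP and pull on actin, and each heavy chain carries an essential and a regulatory light chain at its neck. In the adult mouse ventricle the fast heavy chain of Myh6 prevails, whereas the slow chain of Myh7 belongs to the fetal ventricle and returns under load or when thyroid hormone is low. Myl2 and Myl3 encode the light chains of the ventricle, and Myl7 and Myl4 those of the atria.

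Promoters are shown for the genes whose signals the results turn on: Myh7, whose signal set groups of hearts apart, its neighbour Myh6, and Myl7 and Myl4, which moved together. Each line gives the 250 bases before the annotated start, 5′ to 3′ on the coding strand, from RefSeq (build GRCm38.p6). They lie at chr14:54966608-54966857 (Myh6, minus strand), chr14:54994627-54994876 (Myh7, minus strand), chr11:5898783-5899032 (Myl7, minus strand) and chr11:104550413-104550662 (Myl4, plus strand). Capitals mark matches, on either strand, to 5 motifs searched: CATTCC (the M-CAT element bound by TEAD factors), the CArG box (bound by SRF), the MEF2 site, TATAAA and AGGTCA (a site of thyroid hormone receptors).
Myh6: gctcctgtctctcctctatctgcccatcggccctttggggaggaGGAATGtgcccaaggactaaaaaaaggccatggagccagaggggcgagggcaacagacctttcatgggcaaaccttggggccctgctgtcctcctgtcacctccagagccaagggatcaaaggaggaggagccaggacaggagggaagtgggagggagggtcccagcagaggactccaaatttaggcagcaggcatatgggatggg
Myh7: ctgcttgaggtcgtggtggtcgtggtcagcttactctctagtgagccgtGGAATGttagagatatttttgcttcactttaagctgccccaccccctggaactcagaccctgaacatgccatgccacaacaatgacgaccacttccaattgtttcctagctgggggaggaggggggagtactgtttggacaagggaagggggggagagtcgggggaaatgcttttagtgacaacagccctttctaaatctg
Myl7: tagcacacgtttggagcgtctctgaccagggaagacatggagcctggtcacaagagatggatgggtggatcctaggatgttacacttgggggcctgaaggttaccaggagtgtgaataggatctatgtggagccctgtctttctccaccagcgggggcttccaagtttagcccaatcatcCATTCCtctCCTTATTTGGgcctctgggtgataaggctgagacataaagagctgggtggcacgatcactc
Myl4: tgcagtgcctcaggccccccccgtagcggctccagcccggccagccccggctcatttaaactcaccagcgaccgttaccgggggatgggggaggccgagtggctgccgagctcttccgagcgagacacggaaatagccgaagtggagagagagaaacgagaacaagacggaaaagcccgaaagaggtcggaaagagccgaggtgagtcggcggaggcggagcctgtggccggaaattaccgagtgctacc

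CATTCC matched at bases -206 to -201 of Myh6, -201 to -196 of Myh7 and -70 to -65 of Myl7, counted back from the start, and the Myl7 match is followed by a CArG box at -61 to -52. None of the 5 motifs matched in the 250 bases of Myl4. CATTCC was found in 4 of the 10 promoter windows of the 8 genes (Myh6, Myh7, Myl3 and Myl7), beside 14.7% of all 32851 windows, each of which runs from 250 bases before to 50 after a start. The CArG box was found in 1.63% of all windows and in 2 windows of the set (Myl3 and Myl7). The MEF2 site stood in 3.19%, TATAAA in 13.6% and AGGTCA in 16.3% of all windows. Windows of the set with a match were 1 for MEF2 (Mybpc3), 2 for TATAAA (Myl2, and Myh6 past its start) and 2 for AGGTCA (Myh7b and Myl2). These are matches of letters and say nothing of binding.

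All 3 heavy chain genes also host a microRNA in an intron, which this array did not measure. The mature sequences (RefSeq, GRCm38.p6) are shown with the seed, bases 2 to 8, in capitals, because miR-208a-3p of Myh6 and miR-208b-3p of Myh7 share a seed and 19 of 22 bases. The seed of miR-499-5p, hosted by Myh7b, differs from theirs only in its last base, base 8.
miR-208a-3p: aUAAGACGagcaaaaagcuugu
miR-208b-3p: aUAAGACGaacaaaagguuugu
miR-499-5p: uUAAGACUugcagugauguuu

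Values below are signals on a linear scale as the arrays gave them, or log2 of the signal where so named. A probe set's signal depends on its own probes, so levels are compared between hearts and never between genes. The replicates are separate hearts by their labels.

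**Figure D1:**
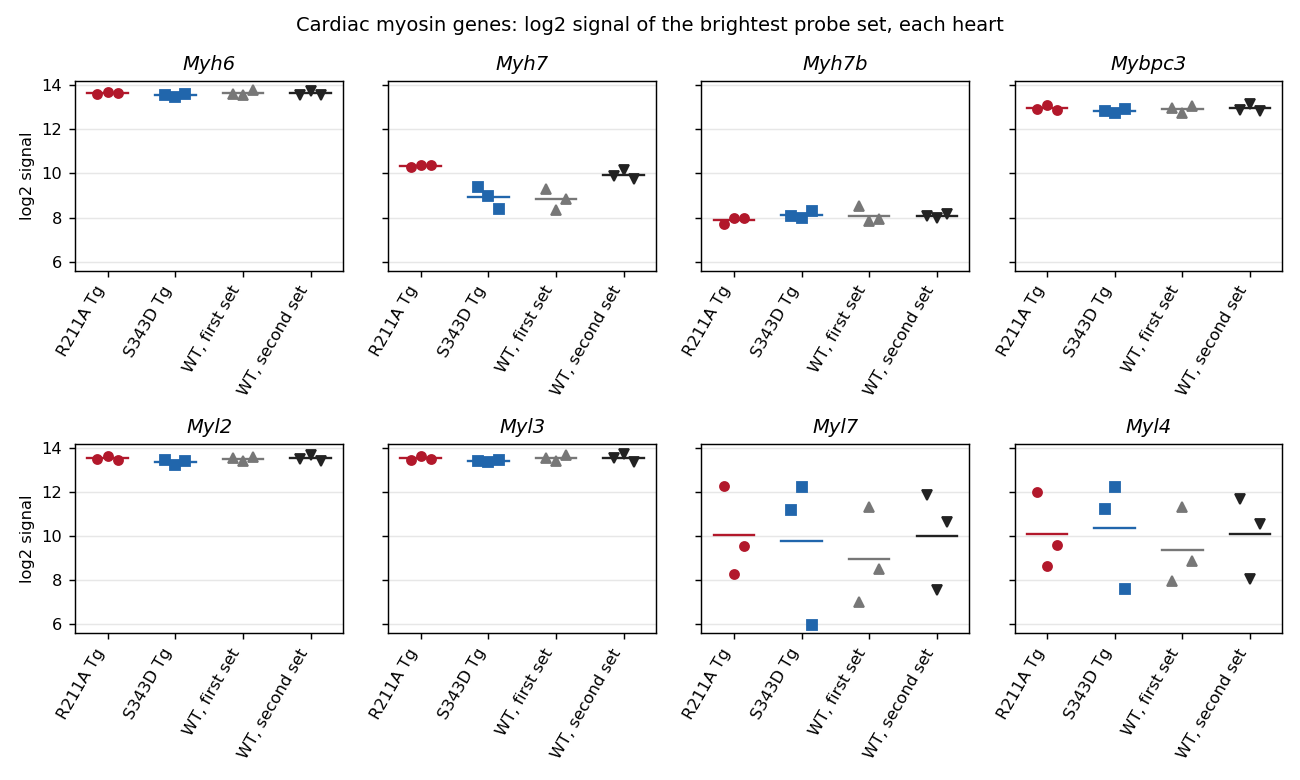
Log2 signal (vertical axis) of the brightest probe set of each gene in 12 hearts, by group, with 1 point a heart and a line at the group mean; heights of different genes are not comparable. Myh6, Mybpc3, Myl2 and Myl3 lie level, Myh7 is higher in R211A Tg and the second WT set, and Myl7 and Myl4 spread widely within every group.

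Myh7 was the member whose groups stood apart most clearly, though no difference passed the adjusted threshold with all WT hearts as controls. Its signal was 1236, 1323 and 1324 in the R211A Tg hearts, 678, 504 and 335 in the S343D Tg hearts, 637, 325 and 458 in the first WT set, and 937, 1130 and 868 in the second WT set. Every R211A Tg heart was above every WT heart, and the second WT set was above the first with no overlap. The group means ran from 473 ± 157 in the first set over 505 ± 171 in S343D Tg and 978 ± 136 in the second set to 1294 ± 50.4 in R211A Tg (SD, n = 3 each). The first set and S343D Tg overlapped, whereas each of the other neighbours in that order was apart. Higher in R211A Tg than in the second set, with no overlap, were 6.18% of all tested probe sets.

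Against all 6 WT hearts, Myh7 signal in R211A Tg was 1.94-fold higher, a log2 difference of 0.96 ± 0.32 (SE, 95% confidence interval 0.28 to 1.64). In limma the unadjusted p was 0.00903 and the adjusted p 0.424, so that it was not called, and an exact permutation test over hearts gave a two-sided p of 0.0476 before adjustment. In that comparison 2.12% of all tested probe sets lay higher in R211A Tg without overlap. The size depended on the WT set: in fits that left the other set out, the log2 difference was 1.5 against the first set (limma adjusted p = 0.0417) and 0.41 against the second (limma adjusted p = 0.690). In the fit with all 4 groups, the difference from the second set had a 95% confidence interval of -0.10 to 0.92 and a limma adjusted p of 0.789. An exact test of 3 hearts against 3 cannot go below 0.1.

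In S343D Tg hearts the log2 difference of Myh7 from all WT hearts was -0.46 (95% confidence interval -1.14 to 0.22, limma adjusted p = 0.995), and it was 0.09 (-0.42 to 0.60) against the first set in the fit with 4 groups. Between the lines, R211A Tg was 2.67-fold higher than S343D Tg, a log2 difference of 1.41 (95% confidence interval 0.63 to 2.20), with no overlap but a limma adjusted p of 0.242. With each line set against the WT set in its own range of heart numbers, the difference between the lines was 0.32 (-0.40 to 1.05, limma adjusted p = 0.885).

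The 2 WT sets themselves stood apart in Myh7. The first set was 1.09 lower on the log2 scale than the second (log2 difference -1.09, 95% confidence interval -1.60 to -0.58), with an unadjusted limma p of 0.000454 and an adjusted p of 0.238. Without overlap, 6.98% of all tested probe sets were lower in the first set. Put in order of heart number, all 6 hearts numbered 1 to 6 had a Myh7 signal of 325 to 678 and all 6 numbered 7 to 12 a signal of 868 to 1324, a separation noticed after the values were seen. Of the 12 member probe sets Myh7 was the 1 that separated so, beside 0.657% of all tested probe sets (148), and 0.386% (87) that were higher in hearts 7 to 12.

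**Figure D2:**
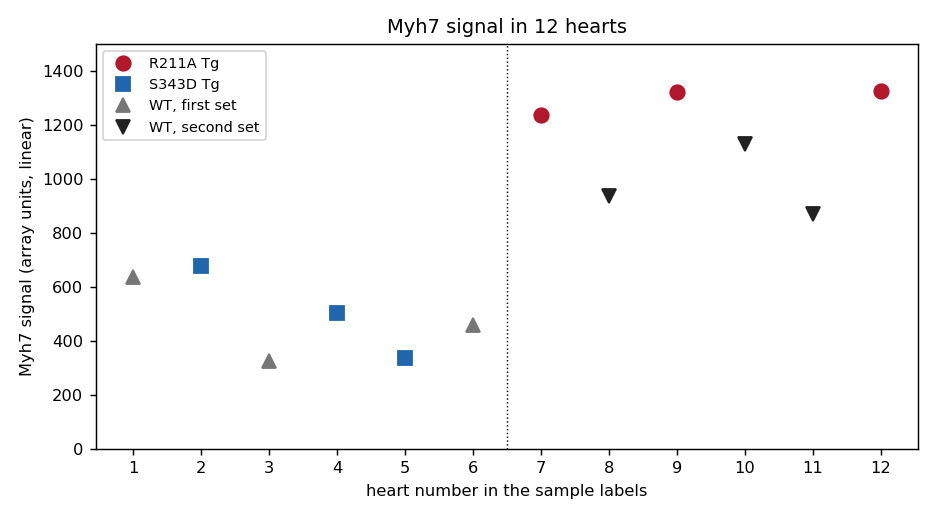
Myh7 signal (vertical axis, linear array units) against the heart number in the labels (horizontal axis), with 1 symbol a heart and a shape for each group; the dotted line parts hearts 1 to 6 from 7 to 12. Hearts 1 to 6 lie between 325 and 678 and hearts 7 to 12 between 868 and 1324, with the R211A Tg hearts highest.

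Between the WT sets, skeletal muscle markers went against the direction of Myh7, and atrial markers leaned in its direction with overlap. Of 15 skeletal muscle markers, 3 passed the filter, and the summed signal of the list was 1455 to 3125 in the first set and 883 to 1124 in the second, the opposite direction to Myh7. Much of the sum in the first set is the signal of 1 gene, Myl1, given at the end. The 3 tested genes were above 0 in the first against the second set, with a median log2 difference of 0.41 and none called. The atrial markers overlapped between the sets, with a summed signal of 4432 to 10458 and 4631 to 12104. Their median log2 difference, first against second set, was -0.26, with 3 of 12 tested genes above 0 and none called. With the atrial marker score of each heart as a covariate, the Myh7 difference between R211A Tg and WT was 0.96, as it was without it. Leaving out the 6 hearts with a Sln signal over 500 gave 0.94 in R211A Tg and -1.05 in S343D Tg, of which 1 heart was then left. Without replicate 1 of the first set, the heart labelled male, the difference between the WT sets was -1.33 and that of R211A Tg from WT 0.95. The part of the tissue piece taken in the Myh7 values was not tested.

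Other genes followed Myh7 over the 12 hearts more closely than any member did. The highest Pearson correlations of log2 signal among 11189 genes were with Pitrm1, a mitochondrial peptidase (r = 0.960), Spint2, a protease inhibitor (0.897), Cnnm4 (0.891), Aldh7a1, an aldehyde dehydrogenase (0.880), and Copg1, a coat protein of vesicles (0.878). After the means of the 4 groups were removed, r was 0.843, 0.683, 0.778, 0.428 and 0.635. These are descriptions over 12 hearts that share the same 4 groups.

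Myh6, the fast heavy chain, was level over the groups. Its brightest probe set read 12524, 13279 and 12577 in R211A Tg, 12004, 11327 and 12368 in S343D Tg, 12483, 11910 and 14185 in the first WT set and 12127, 13696 and 11968 in the second. The groups overlapped except that every R211A Tg heart was above every S343D Tg heart. The log2 difference from WT was 0.01 (95% confidence interval -0.12 to 0.15) in R211A Tg and -0.09 (-0.23 to 0.04) in S343D Tg. The second probe set of Myh6 gave -0.01 (-0.18 to 0.17) and -0.05 (-0.22 to 0.12). A further 2 probe sets name Myh6 and Myh7 together and were not used as members.

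The balance of the slow and fast heavy chain was taken within each heart as log2 Myh7 minus log2 Myh6, set to 0 at the WT mean. It was 0.91, 0.93 and 1.01 in R211A Tg, 0.11, -0.24 and -0.95 in S343D Tg, -0.04, -0.94 and -0.70 in the first WT set and 0.56, 0.65 and 0.47 in the second. R211A Tg hearts stood 0.95 above all WT hearts (exact permutation p = 0.0595, two-sided, 84 splits), and all 3 were above each of the 6. Myh6 was level, so this balance largely repeats Myh7, whose own log2 difference was 0.96. The main test of the balance did not pass 0.05. Among the alternatives it passed without replicate 2 of the second WT set, the WT heart highest in Myh7 (1.08, exact permutation p = 0.0357). With the second probe set of Myh6 the difference was 0.96 and also passed (exact permutation p = 0.0476). The S343D Tg difference from WT was -0.36 (exact permutation p = 0.440). Against its own range of heart numbers, the difference was 0.39 in R211A Tg and 0.20 in S343D Tg, where exact tests of 3 hearts against 3 gave 0.1 and 0.8.

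Myh7b, an ancient heavy chain gene, stayed near WT levels. It read 208, 250 and 253 in R211A Tg, 268, 251 and 314 in S343D Tg, 363, 230 and 243 in the first WT set and 270, 255 and 285 in the second. Every R211A Tg heart was below every heart of the second WT set, and the other groups overlapped. That difference was -0.19 on the log2 scale in the fit with 4 groups (limma adjusted p = 0.872). The share of all tested probe sets that lay lower without overlap is not given here. In the other direction, 6.18% lay higher without overlap, so that such a separation is common and no trait of Myh7b. The log2 difference from WT was -0.20 (95% confidence interval -0.48 to 0.08) in R211A Tg and 0.03 (-0.25 to 0.30) in S343D Tg.

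Myl7, the atrial regulatory light chain, varied most from heart to heart. Its signal was 4910, 315 and 739 in R211A Tg, 2326, 4709 and 63.6 in S343D Tg, 131, 2534 and 359 in the first WT set and 3707, 187 and 1583 in the second. High and low hearts stood in every group, and the highest of the 12 was 77.2 times the lowest. Myl4, the atrial essential light chain, read 4144, 395 and 768 in R211A Tg, 2429, 4846 and 194 in S343D Tg, 252, 2564 and 470 in the first WT set and 3299, 265 and 1504 in the second. The same hearts were high for both genes.

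The spread within groups placed both genes at the far end of the array. The SD of log2 signal within groups was 2.49 for Myl7 and 1.97 for Myl4, which rank 2 and 3 of the 22519 tested probe sets, whose median SD was 0.175. Rank 1 was Sln, the sarcolipin gene of atrial muscle (3.16), and rank 4 was Mybphl, a myosin binding protein gene of the atria (1.95), both named after their values were seen. Myh7 had an SD of 0.37, at percentile 91.5. Myh6 (0.09), Myl2 (0.11), Myl3 (0.13) and Mybpc3 (0.14) were below the median.

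**Figure D3:**
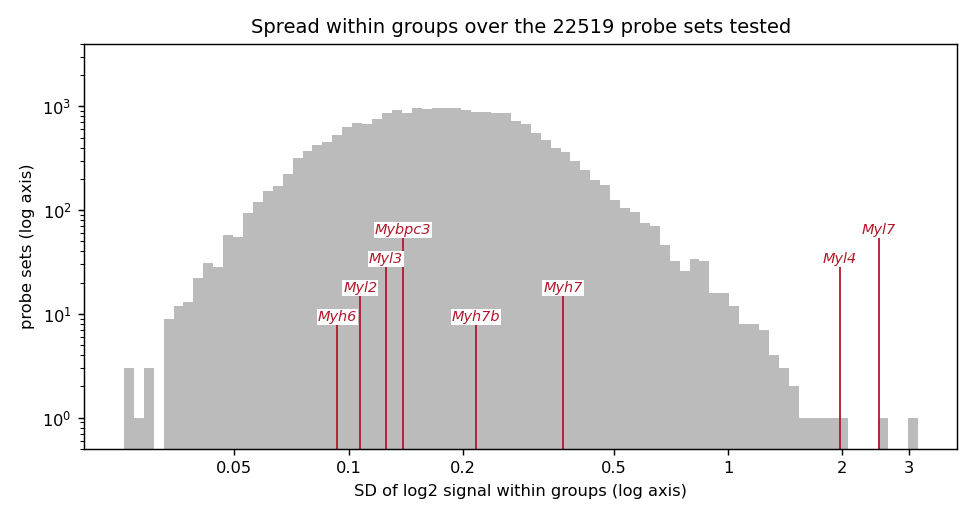
Histogram of the SD of log2 signal within the 4 groups (horizontal axis, log) over the 22519 tested probe sets (vertical axis, number of probe sets, log), with lines at the brightest probe set of each member; the height of a line has no meaning. Myl7 (2.49) and Myl4 (1.97) lie at the right end and Myh6 (0.09) in the left part.

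Myl7 and Myl4 rose and fell together over the hearts. Pearson's r of their log2 signals was 0.990 and Spearman's rho 0.993 over 12 hearts, each with a permutation p of 1e-05, the smallest that 100000 resamples can give (adjusted 3.33e-05 over 10 relations). It was 0.998 without the 2 hearts farthest from the median, 0.996 after the group means were removed, 0.993 within hearts 1 to 6 and 0.999 within hearts 7 to 12. By likeness over 11189 genes, Myl7 was nearest to Myl4, Sln (r = 0.973) and Mybphl (0.958), and Myl4 nearest to Myl7, Dkk3 (0.974) and Mybphl (0.967).

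A score of atrial markers outside the set followed both genes, and the markers were not tested singly. Of 15 markers listed, 14 had a probe set and 12 passed the filter, and their mean log2 signal was taken as an atrial marker score. Nppa, the atrial natriuretic peptide gene, read 8018, 1781 and 2237 in R211A Tg, 5224, 7606 and 1570 in S343D Tg, 2031, 5899 and 2293 in the first WT set and 6691, 2312 and 5063 in the second. Sln, which is in the score, ranged from 7.79 to 3682 over the hearts and so weighs heavily in that mean. The score also holds Mybphl and Dkk3, which like Sln were among the genes nearest to Myl7 or Myl4. The list was chosen with earlier results of these data known, so that the r and p of these 2 genes are not independent evidence. The score had r = 0.977 with Myl7 (rho 0.972) and 0.985 with Myl4 (rho 0.979), each with a permutation p of 1e-05 and an adjusted p of 3.33e-05, and r was 0.975 and 0.982 without the 2 hearts farthest from its median. Within hearts 1 to 6 and 7 to 12, r was 0.987 and 0.972 for Myl7 and 0.993 and 0.975 for Myl4. In whole tissue, more cells of a type and more RNA in each cell cannot be told apart.

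The abundant members tended to be lower in hearts with a high score, on a much smaller scale. After adjustment this passed by Pearson's r and not by Spearman's rho. Against the same score, r was -0.653 for Myh6, -0.620 for Myl2, -0.629 for Myl3 and -0.661 for Mybpc3, with permutation p of 0.0216, 0.0257, 0.0309 and 0.0223 and adjusted p of 0.0429, 0.0429, 0.0441 and 0.0429. Spearman's rho was -0.566, -0.434, -0.580 and -0.622, with permutation p of 0.0599, 0.163, 0.0517 and 0.0353, none of which passed after adjustment (0.0998, 0.219, 0.0998 and 0.0883). Without the 2 hearts farthest from the median score, r was -0.706, -0.758, -0.729 and -0.732. It was between -0.763 and -0.637 for these 4 genes within hearts 1 to 6 and between -0.777 and -0.677 within hearts 7 to 12. Neither Myh7 (r = 0.038, rho -0.007, permutation p = 0.904 and 0.992, adjusted 0.904 and 0.992, r = -0.116 without the 2 hearts) nor Myh7b (r = -0.520, rho -0.420, permutation p = 0.0812 and 0.175, adjusted 0.102 and 0.219, r = -0.434 without the 2 hearts) passed by either measure. The Myh7 values within hearts 1 to 6 and 7 to 12 were 0.148 and -0.457, and those of Myh7b -0.660 and -0.248.

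**Figure D4:**
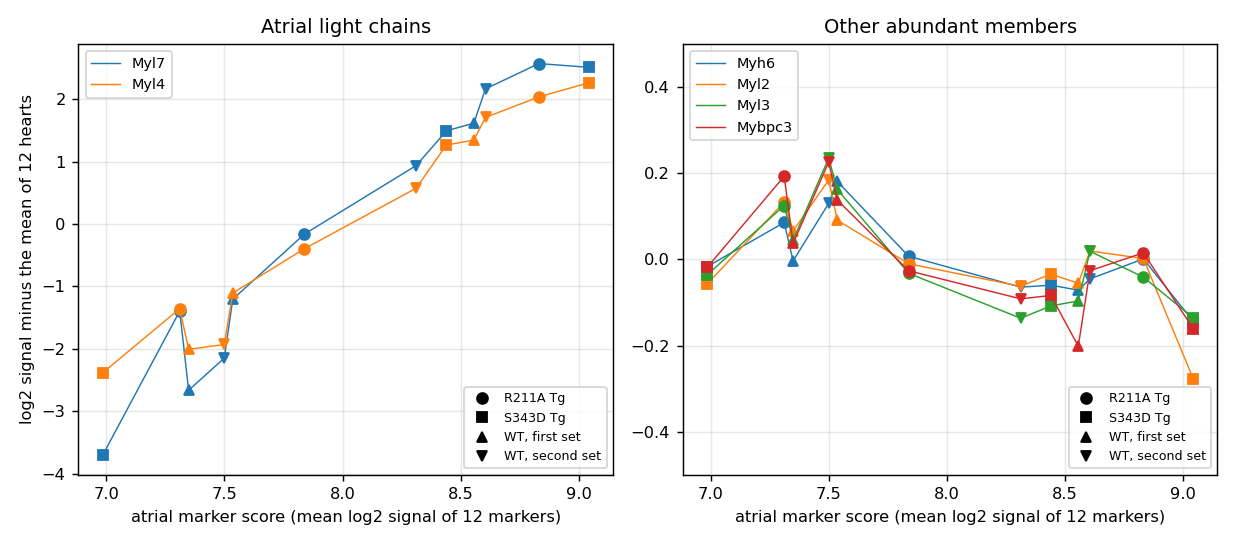
Log2 signal of each gene minus its mean over 12 hearts (vertical axis) against the atrial marker score (horizontal axis, mean log2 signal of 12 markers), with 1 symbol a heart, a shape for each group and a colour for each gene; the right panel spans a range of 1 log2 unit, far less than the left. Myl7 and Myl4 climb with the score through all 4 groups (r = 0.977 and 0.985), and the other 4 genes lie slightly lower at high scores.

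Between genotypes, the spread left the atrial light chains undecided. The log2 difference of R211A Tg from WT was 0.55 for Myl7 (95% confidence interval -2.29 to 3.40) and 0.33 for Myl4 (-1.91 to 2.57), and that of S343D Tg was 0.32 (-2.53 to 3.16) and 0.62 (-1.62 to 2.86). Intervals this wide hold large changes either way. With the atrial score as a covariate the R211A Tg differences were 0.50 and 0.29, and those of S343D Tg were -0.25 and 0.18, so that Myl7 changed sign. Without the 6 hearts with a Sln signal over 500 they were 1.23 and 0.80 in R211A Tg, with 2 hearts left, and -1.70 and -0.70 in S343D Tg, with 1 heart left. None of these values passed in limma. The within-heart difference of Myl7 minus Myl2 was 0.55 higher in R211A Tg than in WT (exact permutation p = 0.738) and that of Myl4 minus Myl3 was 0.35 higher (exact permutation p = 0.810), and in S343D Tg they were 0.48 and 0.75 higher (exact permutation p = 0.821 and 0.679).

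A second probe set of Myl4 lay close to the filter and did not track the first. Its signal was 15.98 to 54.5 in R211A Tg, 48.7 to 89.7 in S343D Tg and 23.5 to 66.8 in WT, and its r with the first probe set was 0.405 (rho 0.322, permutation p = 0.196 and 0.311, adjusted 0.218 and 0.345, r = 0.653 without the 2 hearts farthest from the median, 0.353 and 0.540 within hearts 1 to 6 and 7 to 12). R211A Tg was 1.11 below S343D Tg on it (log2 difference -1.11, 95% confidence interval -2.06 to -0.16, limma adjusted p = 0.517).

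The ventricular light chains and the binding protein were steady. Myl2, the ventricular regulatory chain, read 11392, 12473 and 11296 in R211A Tg, 11110, 9391 and 10936 in S343D Tg, 11907, 10946 and 12117 in the first WT set and 11530, 12926 and 10893 in the second. The S343D Tg hearts included the lowest, and every R211A Tg heart was above every S343D Tg heart. The log2 difference from WT was 0.00 (95% confidence interval -0.15 to 0.15) in R211A Tg and -0.16 (-0.31 to -0.02) in S343D Tg, where the unadjusted limma p was 0.0322 and the adjusted p 0.995.

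Myl3, the ventricular essential chain, has 3 probe sets, and the brightest read 11284 to 12660 in R211A Tg, 10572 to 11325 in S343D Tg and 10562 to 13666 in WT. The log2 differences from WT over the 3 probe sets ran from -0.02 to 0.04 in R211A Tg and from -0.15 to -0.07 in S343D Tg. Mybpc3, which ties myosin heads to the thick filament, read 7812, 8835 and 7589 in R211A Tg, 7293, 6915 and 7629 in S343D Tg, and 6722 to 9041 in WT. Its log2 difference from WT was 0.05 (95% confidence interval -0.13 to 0.23) in R211A Tg and -0.10 (-0.28 to 0.08) in S343D Tg.

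The genes nearest to these members over the 12 hearts, 3 for each, are given as a description. Myl3 was nearest to Tnnc1, the cardiac troponin C gene (r = 0.980), Cox6b1 (0.974) and Atp5o (0.973), Myh6 to ND5 (0.968), Slc25a3 (0.961) and Atp5g3 (0.952), Myl2 to Ndufb8 (0.934), Idh2 (0.914) and Sdhb (0.912), and Mybpc3 to Itm2b (0.976), Pdha1 (0.961) and Ndufa3 (0.960). Myh7b was nearest to Nlrp10 (0.809), Dpm2 (0.809) and Poglut1 (0.808). The genes nearest to Myh6, Myl2, Myl3 and Mybpc3 had high signals themselves, with geometric means from 6503 (Ndufb8) to 10652 (ND5). Why these genes moved together was not tested.

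None of the 12 member probe sets passed an adjusted p of 0.05 in limma in any of the 4 comparisons. Over all tested probe sets, 0.204% were called between R211A Tg and WT (46), 0.00444% between S343D Tg and WT (1), 0.16% between the lines (36) and 0.00888% between the WT sets (2). At an unadjusted p under 0.05, the members were Myh7 alone between R211A Tg and WT, where 7.51% of all probe sets were, Myl2 alone between S343D Tg and WT (3.98%), Myh7 and the second Myl4 probe set between the lines (8.45%), and Myh7 alone between the WT sets (7.99%). An exact permutation test adjusted over all tested probe sets called none, which decides little. Its smallest p before adjustment is 0.0119 for 3 hearts against 6, and 0.1, over the threshold, for 3 against 3. Of the member probe sets, 5 did not overlap between the lines (Myh7, Myl2, the brightest of Myh6 and 2 of Myl3), all higher in R211A Tg, beside 7.55% of all tested probe sets in that direction.

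**Figure D5:**
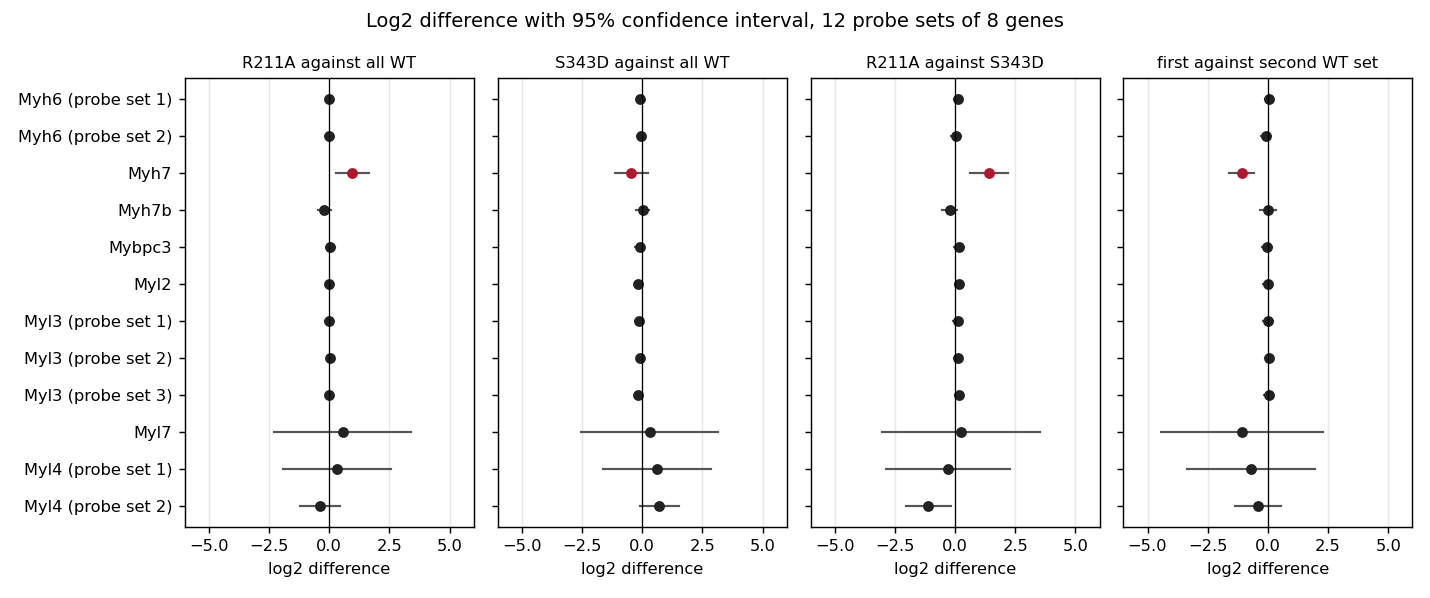
Log2 difference (horizontal axis) with its 95% confidence interval for the 12 member probe sets (rows, numbered from the brightest within a gene) in 4 comparisons (panels), with Myh7 in red. Myh7 is 0.96 above WT in R211A Tg and 1.09 lower in the first than in the second WT set, the abundant genes lie at 0 with narrow intervals, and Myl7 and Myl4 have intervals several log2 units wide.

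The proteins that fold and phosphorylate myosin were read beside the members, from a list of 15 genes of which 13 were tested. Unc45b and Hsp90aa1 rose in R211A Tg hearts, and none fell. Unc45b, the myosin chaperone of striated muscle, read 2414, 2380 and 2730 in R211A Tg, 1786, 1631 and 1807 in S343D Tg and 1472 to 1885 in WT. Every R211A Tg heart was above all others, 1.46-fold over WT (log2 0.54, 95% confidence interval 0.38 to 0.71, limma adjusted p = 0.00329). Hsp90aa1, the heat shock protein that works with it, read 2217, 2628 and 3698 in R211A Tg, 1379, 1709 and 1720 in S343D Tg and 1471 to 1695 in WT. It was 1.80-fold over WT (log2 0.85, 0.59 to 1.11, limma adjusted p = 0.0044). Against the second WT set, in the fit with 4 groups, the log2 differences were 0.50 and 0.81 (limma adjusted p = 0.0416 and 0.0482), and against S343D Tg 0.53 and 0.80 (0.024 and 0.0331). The study listed heat shock genes from these same hearts, so that their direction is not independent evidence. The list had a median log2 difference of 0.03 beside 0.00 over all 11189 genes tested, where 14 rose and 9 fell. Mylk4, a myosin light chain kinase, stood at -0.36 (limma adjusted p = 0.632).

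Factors that are known to control the cardiac myosin genes gave no call. Of 32 listed, 29 were tested, with a median log2 difference from WT of 0.02 in R211A Tg and 0.00 in S343D Tg, and 4 and 3 had an unadjusted p under 0.05, beside 841 and 424 of 11189 genes. Tead1, which binds M-CAT elements, read 1296, 1398 and 1407 in R211A Tg and 1544 to 1818 in WT (log2 -0.27, 95% confidence interval -0.40 to -0.13, limma adjusted p = 0.166). Srf, which binds CArG boxes, stood at 0.28 (limma adjusted p = 0.438), and Thra, a thyroid hormone receptor, at 0.23 (limma adjusted p = 0.548). None of 13 tested genes of 20 that respond to thyroid hormone in the heart was called in any comparison. Among them Ucp3 was 0.96 lower in R211A Tg than in S343D Tg (log2 difference -0.96, limma adjusted p = 0.345) and 0.73 higher in the first than in the second WT set (limma adjusted p = 0.444).

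Genes of the rest of the sarcomere gave no call. None of 4 tested other myosin heavy chains, 7 other light chains and binding proteins, 12 thin filament genes and 6 M-band and titin genes was called in any of the 4 comparisons. Of the heavy chains listed, Myh1, Myh2, Myh3, Myh4 and Myh8 of skeletal muscle were below the filter. For R211A Tg against WT the medians were 0.06, 0.16, -0.01 and -0.05, of which the first turned to -0.07 by the mean of all probe sets of a gene and the third to 0.02 with each array centred on its median. Among these genes were Myh10, a non-muscle heavy chain, at 0.20, Myl6, a light chain of smooth and non-muscle cells, at 0.16, Tnnt1, the slow skeletal troponin T, at 0.34, and Trim63, a ubiquitin ligase that targets thick filament proteins, at -0.12. Acta1, the skeletal actin of the fetal heart, was 1.06 higher in the first than in the second WT set (limma adjusted p = 0.403), a direction opposite to that of Myh7. Of 8 tested markers of load and the fetal program, none was called, and Nppb, the brain natriuretic peptide gene, stood at 0.19 (95% confidence interval -0.15 to 0.53) in R211A Tg.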

How the data were processed

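Each of 12 hearts gave total RNA for 1 Affymetrix mouse array. The deposited table holds linear signal intensities, which the authors made with MAS5 per the labels, and whose mean without the lowest and highest 2% is 150 on every array, as was tested on the table. The study's methods name GCOS for this step. Not given in the sources used here are the version of MAS5 and detection calls. Because each array is scaled to the same mean, a value is relative to the rest of its array. The number of arrays limits the precision. The methods also describe groups with infarction, which the labels do not.

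The 64 array controls were left out, signals were taken to log2 as deposited, and tests covered the brighter 22519 of 45037 probe sets, whose log2 signal averaged no less than the median of 5.44 (on the linear scale 43.5). Genes were named by the platform's annotation, with 34945 probe sets naming 1 gene, 932 several and 9160 none, and a gene outside the set was read from its brightest probe set. The files name no genome build, so coordinates are given only for RefSeq sequences of GRCm38.p6.

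Genotypes were compared with limma 3.58.1 in R 4.3.3 (linear model, eBayes with trend, 3 genotypes, all 12 hearts, two-sided), and the WT sets, or a line against the set in its own range of heart numbers, in a model of 4 groups. Fits with 1 WT set alone left the other set out. A probe set was called at an adjusted p (Benjamini-Hochberg, over all tested) under 0.05. The code was tested on simulated data. Single values were compared by exact permutation over hearts, and correlations by a permutation test with 100000 resamples (Python 3.11.15, scipy 1.17.1). Arrays correlated with each other at 0.933 to 0.945 over all probe sets. Deviations of hearts with the same replicate number from their group means correlated at -0.20 to 0.21 (15 pairs, 5 over 0.1). Pairs with different numbers were not set beside them, so this cannot settle whether the numbers pair hearts. No pairing was used.

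The members, the 18 gene lists and the rules were chosen with earlier results of these data known, and Myh7 is also among the genes the study itself listed from these hearts, so that its values are not independent evidence. Named genes are all members, every listed gene that was called, otherwise up to 3 a list with the smallest unadjusted p, Ilk, and the genes most like each member by Pearson correlation over the 12 hearts (5 for Myh7, 3 for the others). Alternatives covered scaling, an offset of 16, filters, the variance prior, array weights, the hearts in the fit, each WT set alone, blocks, each heart left out, probe sets and the test. The atrial score as a covariate and leaving out hearts with a Sln signal over 500 were added after the data were seen.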

Additional observations from a re-analysis of the deposited data

How the results depend on the processing

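The 48 member results (12 probe sets in 4 comparisons) were recomputed under 1424 alternative values in all. Of these, 1420 stayed on their side of the threshold. No member was called in the main fits, so there was no call to lose or reverse. The exact test between the lines and between the WT sets could not pass, since its smallest p lies over the threshold. The tally of unchanged values therefore says little of stability. Of the 4 that passed, 1 was Myh7 in R211A Tg against the first WT set alone. By an unpaired t-test at an unadjusted p under 0.05, Myh7 and the Myl3 probe set of middle brightness passed between the lines. So did Myh7 between the WT sets. None passed with 1 heart left out, where Myh7 in R211A Tg against WT ran from 0.75 to 1.11. As counts of member probe sets called, this is 1 with the first set alone, and 2 between the lines and 1 between the WT sets by the unadjusted test.

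Counts over all probe sets moved more. Leaving out the 6 hearts with a Sln signal over 500 kept 1 heart of S343D Tg, 1 of the second WT set and 2 of each other group, so that a lone heart is assumed to vary like the other groups and its counts say little of stability. For R211A Tg against WT, 46 became 19 with the second set alone and 23 without the hearts high in Sln. An unpaired t-test called 1628 unadjusted and 5 adjusted, and the adjusted exact permutation test 0. Exact counts here and below say little, since the smallest exact p is 0.0119 for 3 hearts against 6 and 0.1 for 3 against 3. For S343D Tg against WT, 1 became 2 with the second set alone and 5 without the hearts high in Sln (1 S343D Tg heart), 902 by the unadjusted test and 0 by the exact test. Between the lines, 36 became 5 without trend, 55 with array weights, 16 with the groups compared alone, 3 with the range of heart numbers as a block and 15 without the hearts high in Sln (1 S343D Tg heart), 1853 by the unadjusted test and 0 by both the adjusted and the exact test; with 1 heart left out the count was between 10 and 49. Between the WT sets, 2 became 1 with a filter at percentile 75 and with the groups compared alone, 16 without the hearts high in Sln (1 heart of the second set), 1472 by the unadjusted test and 0 by both others, and 2 to 4 with 1 heart left out (4 without replicate 2 of the first set). With the replicate number as a block over the 11 numbered hearts, the lines differed in 8 probe sets in place of 36 and the other counts were 42, 1 and 3, with no member called. Since no source used here says that the numbers pair the hearts, this is a check alone.

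Within hearts, Myh7 minus Myh6 in R211A Tg against WT was 0.95 and became 0.96 with the other Myh6 probe set, 1.51 against the first set alone and 0.39 against the second, and 0.76 to 1.08 with 1 heart left out, past 0.05 in exact permutation without replicate 2 of the second set. The cause of these shifts was not tested. None of the 96 alternative values of the light chain differences passed. With 3 hearts a line, changes of the size of the WT sets' own Myh7 difference cannot be told apart from it, and hearts that vary as Myl7 does leave changes of several log2 units undetected.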

Other observations

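Cell type markers gave no call in any comparison, over 16 tested cardiomyocyte, 12 atrial, 8 ventricular, 3 skeletal muscle, 7 smooth muscle, 10 fibroblast, 10 endothelial, 10 macrophage, 3 adipocyte and 2 red cell genes. The fibroblast genes had a median log2 difference from WT of 0.10 in R211A Tg and 0.14 in S343D Tg, and of 0.19 between the first and the second WT set, with 9, 10 and 9 of 10 above 0. Taken over 9 genes by the mean of all probe sets of a gene, these medians were -0.05, 0.08 and 0.21, so that the sign in R211A Tg turned. Cardiomyocyte genes stood lower in S343D Tg than in WT for 14 of 16 genes, with a median of -0.10 beside 0.00 over all genes tested, and -0.13 after median centring of the arrays.

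Myl1, the light chain gene of fast skeletal muscle, read 923, 2458 and 826 in the first WT set and 439, 278 and 564 in the second, with no overlap and a log2 difference of 1.59 (95% confidence interval 0.65 to 2.53, limma adjusted p = 0.400). Such separations are common: 6.98% of all tested probe sets were lower in the first set without overlap. The share that was higher is not given here. In R211A Tg Myl1 was 810, 1092 and 561 and in S343D Tg 1562, 2061 and 710.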
